A study of Mus musculus with 8 samples.

Results

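The potassium channels that open on a rise of calcium or sodium inside the cell were followed in cultured mouse oligodendrocyte progenitors, the glial precursors from which myelin-forming cells arise. The genes were chosen by family membership, as the gene symbols Kcnn1, Kcnn2, Kcnn3, Kcnn4, Kcnma1, Kcnmb2, Kcnmb4, Kcnt1 and Kcnt2. Of these 9 genes, 8 were measured among 24155 genes in all, and Kcnmb2 was not analysed here. All 8 passed the filter on low counts that left 18102 genes for testing.

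RNA captured with oligo-dT was sequenced from progenitors carrying loxP-flanked Ehmt1 and Ehmt2 (Ehmt1fl/fl;Ehmt2fl/fl), which encode partner methyltransferases of lysine 9 of histone H3. The pups, of both sexes, were at postnatal day 7, and the immunopanned cells were kept proliferating with growth factors (10 ng/mL PDGF-AA, 20 ng/mL bFGF). The cKO group was 4 cultures given the adenovirus Ad-RFP-iCre, which carries Cre recombinase and a red fluorescent protein. The control group was 4 cultures of the same genotype given Ad-RFP, which lacks Cre. Cells were infected for 6 hours at an MOI (virus dose per cell) of 10, and RNA was taken 72 hours after infection. Replicate numbers 1, 3, 4 and 6 each name a batch with 1 cKO and 1 control library, and the labels do not say whether batches came from separate animals. All cells, the controls included, carried floxed alleles and received adenovirus, so the groups model acute recombination in culture.

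Small-conductance channels, encoded by Kcnn1, Kcnn2 and Kcnn3, and the intermediate-conductance channel, encoded by Kcnn4, sense calcium through calmodulin bound to each subunit. The large-conductance BK channel, whose pore is encoded by Kcnma1, opens on both calcium and depolarization, and its gating is tuned by beta subunits such as that of Kcnmb4. Kcnt1 and Kcnt2 encode the sodium-activated channels Slack and Slick. In excitable cells these channels carry potassium out after calcium or sodium has entered, which pulls the membrane potential down.

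Total estimated counts ran from 43542742 to 65374488 per library. Ehmt1 averaged 41.5 ± 3.98 CPM in cKO and 95.5 ± 5.58 CPM in control libraries, and Ehmt2 averaged 58.4 ± 5.86 CPM in cKO and 177 ± 17.1 CPM in control libraries (SD, n = 4 each). CPM is the count of a gene scaled to the size of its library. Summed over 6 progenitor markers, cKO replicates 1, 3, 4 and 6 held 7530, 8257, 6542 and 8557 CPM, against 8296, 9457, 6915 and 8888 CPM in control. This sum was lower in cKO in all 4 batches, and 2 of the 6 markers fell, Pdgfra and Ptprz1, by the test given below. In that test 10.4% of all genes fell. All 6 markers averaged over 100 CPM in control, and of the 2305 genes tested at that level 570 fell. Summed over 10 neuron markers, 9 of them measured, cKO replicates 1, 3, 4 and 6 held 57.0, 83.9, 61.7 and 76.3 CPM, against 32.6, 48.8, 45.0 and 72.5 CPM in control. Summed over 7 oligodendrocyte markers, they held 778, 309, 2987 and 1209 CPM in cKO, against 556, 249, 1942 and 1124 CPM in control. The neuron and oligodendrocyte sums were both higher in cKO in all 4 batches. Genes encoded in mitochondrial DNA also took a higher share of counts in cKO in each batch, up to 3.63% in cKO and up to 3.24% in control. The share of the ribosomal RNA gene CT010467.1 was lower in each, at 6.61% to 9.13% in cKO and 7.91% to 10.1% in control. The part of these measures in the changes below was not tested. In bulk RNA, fewer cells of a type and less RNA per cell cannot be told apart.

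Among the 8 channel genes, 1 fell and 2 rose in cKO, and 5 did not pass the test. Kcnn2 fell to 46.9% of its control level, while Kcnt2 rose to 145% and Kcnma1 to 118%. The test was edgeR's quasi-likelihood test with the batch as a block, and genes passed at a Benjamini-Hochberg adjusted p under 0.05, adjusted over the 18102 genes tested. In that test 20.5% of all genes passed, 10.0% higher and 10.4% lower in cKO. The 3 of 8 channel genes are read against that background. The median log2 fold change of the 8 was 0.15, against -0.01 over all genes tested, and the median absolute change was 0.26, against 0.12. Without the block, the edgeR test passed 0 of the 8 genes, 0 of them at an unadjusted p under 0.05, and DESeq2 on group alone also passed 0, with 0.0166% of all genes past the threshold in edgeR. The cKO and control ranges overlapped for all 8 channel genes, whereas 3.68% of all genes had ranges that did not overlap. The changes are therefore differences within batches, and p-values measure the spread of those differences, which may be partly technical.

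**Figure D1:**
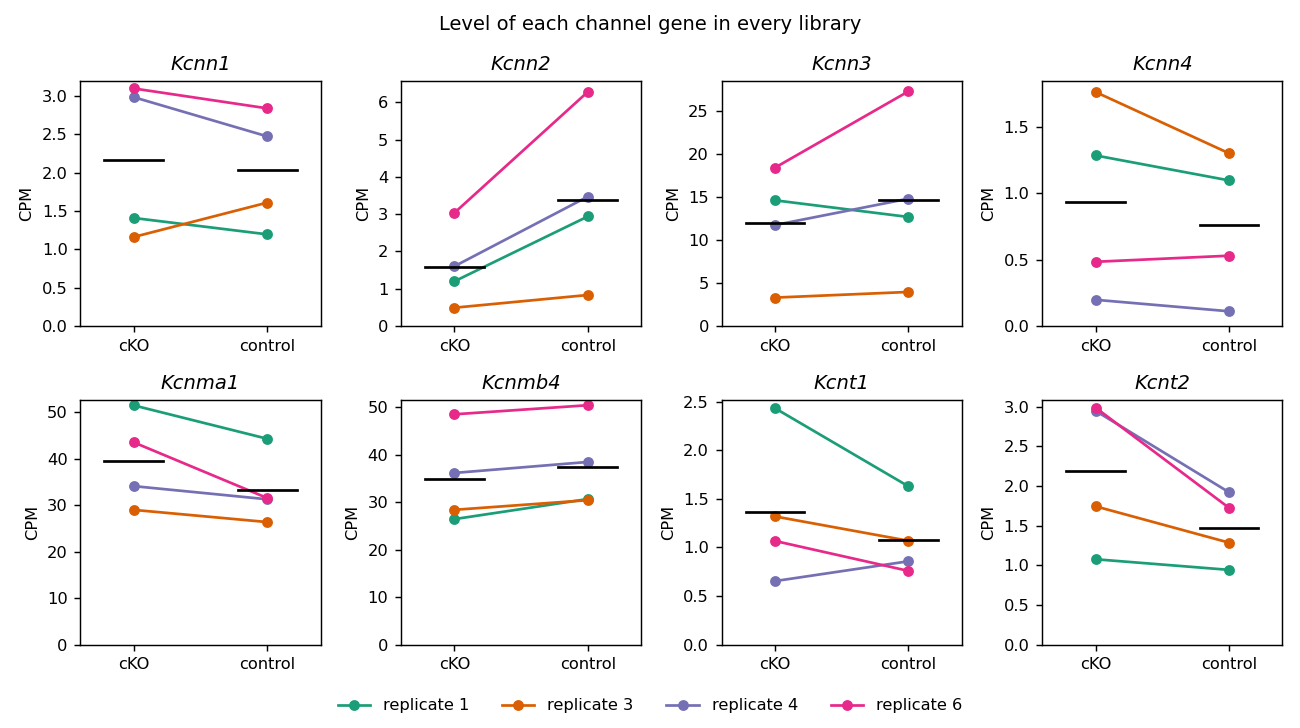
CPM of each channel gene (vertical axes, from 0) in cKO and control libraries, with lines joining the libraries of a batch and black bars at group means. Kcnn2 was lower in cKO in all 4 batches, from 0.491 to 3.03 CPM against 0.832 to 6.29 CPM, and its batches spread more widely than its group means.

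The levels of the genes were set side by side per length, as CPM per kilobase of annotated exon. Kcnmb4 was highest, at 10.5 ± 3.02 CPM per kb in cKO and 11.3 ± 2.83 in control (SD, n = 4 each). Kcnma1 came next, at 2.33 ± 0.589 in cKO and 1.97 ± 0.452 in control, followed by Kcnn3 at 1.15 ± 0.614 in cKO and 1.41 ± 0.921 in control. The range of Kcnmb4 lay above that of Kcnma1 in both groups, while the ranges of Kcnma1 and Kcnn3 overlapped in both. The other 5 genes averaged under 0.5 CPM per kb. Kcnn1 averaged 0.472 ± 0.222 in cKO and 0.443 ± 0.165 in control, and Kcnt2 averaged 0.317 ± 0.136 in cKO and 0.213 ± 0.0638 in control. Kcnn4 averaged 0.182 ± 0.141 in cKO and 0.149 ± 0.106 in control, and Kcnt1 averaged 0.144 ± 0.0801 in cKO and 0.113 ± 0.0409 in control. Kcnn2 ranked below Kcnt2 in cKO, at 0.212 ± 0.144, and above Kcnn1 in control, at 0.453 ± 0.301 CPM per kb. Neighbours in the order below Kcnma1 had overlapping ranges in both groups. Kcnma1 has 38 annotated transcripts over 16976 exon bases, so its level per length depends on which exons the cells use.

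**Figure D2:**
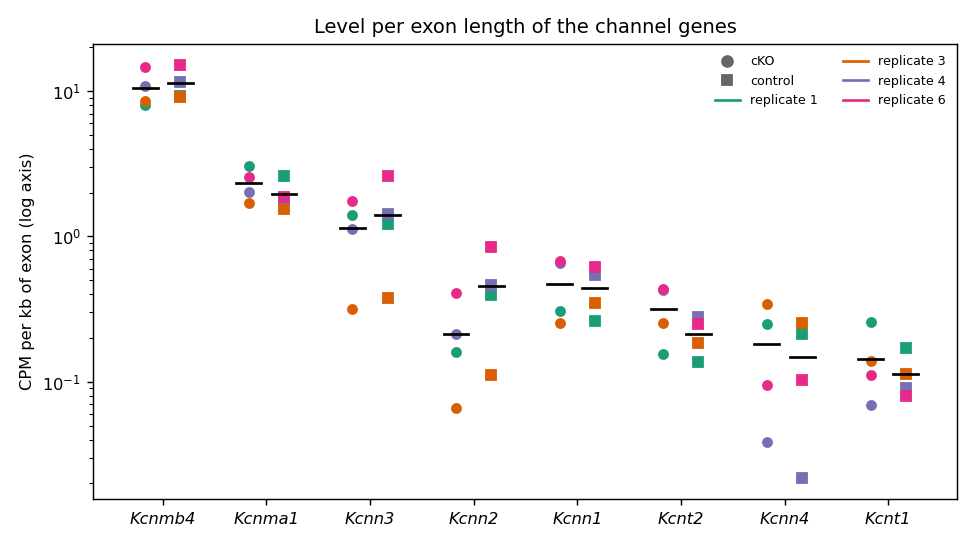
CPM per kilobase of exon (log axis) of the 8 channel genes in order of the control mean, with a circle for each cKO library, a square for each control library and black bars at group means. Kcnmb4 lies between 7.95 and 15.2 CPM per kb, above the 1.55 to 3.03 CPM per kb of Kcnma1.

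Start-site sequences are shown for a gene that rose (Kcnt2) and for a pair that did not pass (Kcnn3, Kcnn4), as the stretch of 150 bases just before the RefSeq start. For Kcnt2 that start lies upstream of the gene start in the deposited coordinates, and for Kcnn3 and Kcnn4 they coincide. The sequences come from RefSeq on GRCm38.p6, overlap no annotated exon, run 5′ to 3′ on the plus strand, and have each CG dinucleotide in capitals. The windows are chr1:140245568-140245717 for Kcnt2, chr3:89520014-89520163 for Kcnn3 and chr7:24370113-24370262 for Kcnn4.
Kcnt2: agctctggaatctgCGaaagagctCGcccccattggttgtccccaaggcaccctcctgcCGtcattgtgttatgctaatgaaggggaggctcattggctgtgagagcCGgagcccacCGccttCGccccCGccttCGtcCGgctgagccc
Kcnn3: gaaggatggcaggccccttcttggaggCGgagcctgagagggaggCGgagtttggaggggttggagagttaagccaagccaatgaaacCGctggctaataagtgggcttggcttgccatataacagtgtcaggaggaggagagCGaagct
Kcnn4: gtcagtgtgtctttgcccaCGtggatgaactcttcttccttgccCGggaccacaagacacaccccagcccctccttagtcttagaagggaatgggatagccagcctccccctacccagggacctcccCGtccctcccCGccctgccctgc

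The promoter table matched 7 of the 9 symbols, with 8 start sites. In windows from 250 bases before to 50 bases after the start, CG (the same letters on both strands) occurred 48 times in Kcnmb4 and 36 times in Kcnma1. It occurred 16 and 13 times at the pair of Kcnn1 starts, 12 times in Kcnt2, 11 in Kcnn3, 9 in Kcnmb2 and 6 in Kcnn4. Over all 32851 windows the median was 7, and 94.6% held at least 1 CG. Fewer CG than in Kcnmb4 were found in 98.8% of windows, and fewer than in Kcnma1 in 93.8%. The Kcnma1 and Kcnmb4 windows lie inside their genes as the deposited coordinates give them, downstream of the gene starts. So does the Kcnn1 window with 16 CG.

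Kcnn2 (chromosome 18, 45268860 to 45686024, mm10, plus strand, protein-coding) encodes the SK2 pore subunit, a carrier of the afterhyperpolarization in neurons. It had 1.20, 0.491, 1.60 and 3.03 CPM in cKO replicates 1, 3, 4 and 6, against 2.94, 0.832, 3.47 and 6.29 CPM in the control libraries of the same numbers. Each cKO library lay below the control of its batch, and replicate 3 was lowest and replicate 6 highest in both groups. The log2 differences within batches were -1.27, -0.72, -1.10 and -1.04. The fitted log2 fold change was -1.09 ± 0.13 (SE), with a 95% interval from -1.38 to -0.80 and an adjusted p of 0.000386 in edgeR. The call held without any 1 batch, with log2 fold changes from -1.14 to -1.03 and edgeR adjusted p-values from 0.00171 to 0.00417. On group alone the interval ran from -2.62 to 0.44.

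Kcnn2 counts were between 21.8 and 332 per library, and all 8 values were fractional, as estimated counts can be where a read fits several features. An antisense gene, A330093E20Rik, and a processed pseudogene, Gm10540, overlap it on the opposite strand. They averaged 0.0798 and 0.122 CPM in cKO and 0.0846 and 0.122 CPM in control, where Kcnn2 averaged 1.58 CPM in cKO and 3.38 CPM in control. In cKO replicate 3 the partners had 0.0481 and 0.166 CPM, against 0.491 CPM for Kcnn2. Summed over 7 astrocyte markers, cKO libraries held 1589, 705, 1854 and 2146 CPM and control libraries 1781, 717, 1970 and 2272 CPM, in the order of replicates 1, 3, 4 and 6. The sum was thus lower in cKO in all 4 batches and ordered the batches as Kcnn2 did, and its part in the result was not tested. Slc1a3 made up most of that sum, with 970, 432, 1146 and 1227 CPM in cKO and 1189, 554, 1363 and 1443 CPM in control. Without Slc1a3 the sum was higher in cKO in all 4 batches. Single astrocyte markers moved both ways: 2 of the 7 rose, among them Aqp4 with a log2 fold change of 0.62, and 2 fell, among them Slc1a3 at -0.28. Of all genes tested, 10.0% rose and 10.4% fell.

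Kcnn3 (chromosome 3, 89520164 to 89675132, plus strand), encoding SK3, was the most abundant of the small-conductance channel genes per length. It had 14.6, 3.31, 11.7 and 18.4 CPM in cKO replicates 1, 3, 4 and 6, against 12.7, 3.96, 14.8 and 27.3 CPM in control. It was lower in cKO in 3 of 4 batches and higher in replicate 1. Fitted over the 4 batches, its log2 fold change was -0.25 ± 0.12 (SE), with a 95% interval from -0.53 to 0.04 and an edgeR adjusted p of 0.202. Without replicate 1 it was -0.42 with an adjusted p of 0.0125 in edgeR, so the call changed with that batch. As for Kcnn2, replicate 3 held the lowest level in both groups.

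Kcnn1 (chromosome 8, 70842049 to 70863258, minus strand) encodes SK1. Its levels were 1.41, 1.16, 2.99 and 3.10 CPM in cKO replicates 1, 3, 4 and 6, against 1.20, 1.61, 2.47 and 2.84 CPM in control. Replicates 4 and 6 were high in both groups. For Kcnn1 the log2 fold change was 0.07 ± 0.15 (SE), with a 95% interval from -0.27 to 0.41 and an edgeR adjusted p of 0.804. That interval leaves out a change of the size seen for Kcnn2. A difference between the changes of the genes was not tested.

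Kcnn4 (chromosome 7, 24370263 to 24386690, plus strand) encodes the intermediate-conductance channel, known from red blood cells, lymphocytes and microglia. It had 1.29, 1.76, 0.198 and 0.484 CPM in cKO replicates 1, 3, 4 and 6, against 1.10, 1.30, 0.111 and 0.530 CPM in control. Its batch order ran opposite to that of Kcnn1, with replicates 1 and 3 above 4 and 6 in both groups and an 11.7-fold span between control libraries. Its log2 fold change was 0.28 ± 0.22 (SE), with a 95% interval from -0.21 to 0.76 and an edgeR adjusted p of 0.414. Counts ran from 7 to 79 per library, which limits the precision of this gene. Of 7 microglia and macrophage markers 3 were measured, and Cx3cr1, Aif1, Itgam and Tmem119 were not analysed here. Their sum was 1.53, 1.05, 0.751 and 0.694 CPM in cKO replicates 1, 3, 4 and 6, against 0.921, 0.470, 0.317 and 0.435 CPM in control. The sum was higher in cKO in all 4 batches. P2ry12, a microglial purine receptor gene, ran from 0.376 to 1.41 CPM in cKO and from 0.190 to 0.823 CPM in control, and it was higher in cKO in all 4 batches. It was the 1 marker of the list that was tested, and it rose (log2 fold change 0.77, edgeR adjusted p = 0.0424). The part of these markers in the level of Kcnn4 was not tested.

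Kcnma1 (chromosome 14, 23289431 to 24014491, minus strand), the BK channel pore gene, rose by a small amount. It had 51.5, 29.0, 34.1 and 43.5 CPM in cKO replicates 1, 3, 4 and 6, against 44.3, 26.4, 31.3 and 31.5 CPM in control. Each cKO library lay above the control of its batch, with log2 differences of 0.22, 0.14, 0.12 and 0.46. The log2 fold change was 0.24 ± 0.06 (SE), with a 95% interval from 0.11 to 0.37 and an edgeR adjusted p of 0.0166. Without replicate 1 the adjusted p was 0.0571 in edgeR at a log2 fold change of 0.25. Without replicate 6, where the difference was largest, the log2 fold change was 0.16 and the adjusted p 0.0321 in edgeR. Partner genes on the opposite strand averaged under 0.3 CPM in either group.

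Kcnmb4 (chromosome 10, 116417861 to 116473878, minus strand), the beta subunit that slows BK gating, did not pass. It had 26.4, 28.4, 36.2 and 48.5 CPM in cKO replicates 1, 3, 4 and 6, against 30.7, 30.4, 38.5 and 50.4 CPM in control. Every cKO library lay slightly below its control, a pattern of one sign in all 4 batches that 40.7% of all genes showed in either direction. For Kcnmb4 the fit gave a log2 fold change of -0.11 ± 0.04 (SE), with a 95% interval from -0.20 to -0.02 and an edgeR adjusted p of 0.0798. The antisense gene Kcnmb4os2, which overlaps Kcnmb4 on the opposite strand, averaged 4.42 CPM in cKO and 4.37 CPM in control. Kcnmb4os1, also on the opposite strand, averaged 0.803 CPM in cKO and 0.909 CPM in control. No source used here says whether reads were counted by strand, so reads of these partners and of Kcnmb4 cannot be told apart.

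Kcnt2 (chromosome 1, 140246158 to 140612067, plus strand), which encodes Slick, rose. It had 1.07, 1.74, 2.95 and 2.99 CPM in cKO replicates 1, 3, 4 and 6, against 0.941, 1.28, 1.92 and 1.72 CPM in control. All 4 cKO libraries lay above their controls, with log2 differences of 0.18, 0.43, 0.61 and 0.78. Fitted together, they gave a log2 fold change of 0.54 ± 0.15 (SE), with a 95% interval from 0.21 to 0.88 and an edgeR adjusted p of 0.0295. The call was lost without replicate 3, 4 or 6, with edgeR adjusted p-values of 0.0691, 0.117 and 0.118, and with DESeq2 and the block, at 0.0712. The log2 fold change in those fits lay between 0.44 and 0.57.

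Kcnt1 (chromosome 2, 25863734 to 25918273, plus strand), which encodes Slack, had 2.43, 1.32, 0.652 and 1.07 CPM in cKO replicates 1, 3, 4 and 6. The control libraries of those numbers had 1.63, 1.07, 0.856 and 0.757 CPM. The cKO library was higher in 3 of 4 batches and lower in replicate 4. The log2 fold change was 0.28 ± 0.19 (SE), with a 95% interval from -0.15 to 0.72 and an edgeR adjusted p of 0.344. The interval holds both 0 and the value of Kcnt2, so the pair of sodium-activated channel genes cannot be ranked by their change. Their levels differed in batch order, with replicate 1 highest for Kcnt1 and lowest for Kcnt2 in both groups.

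**Figure D3:**
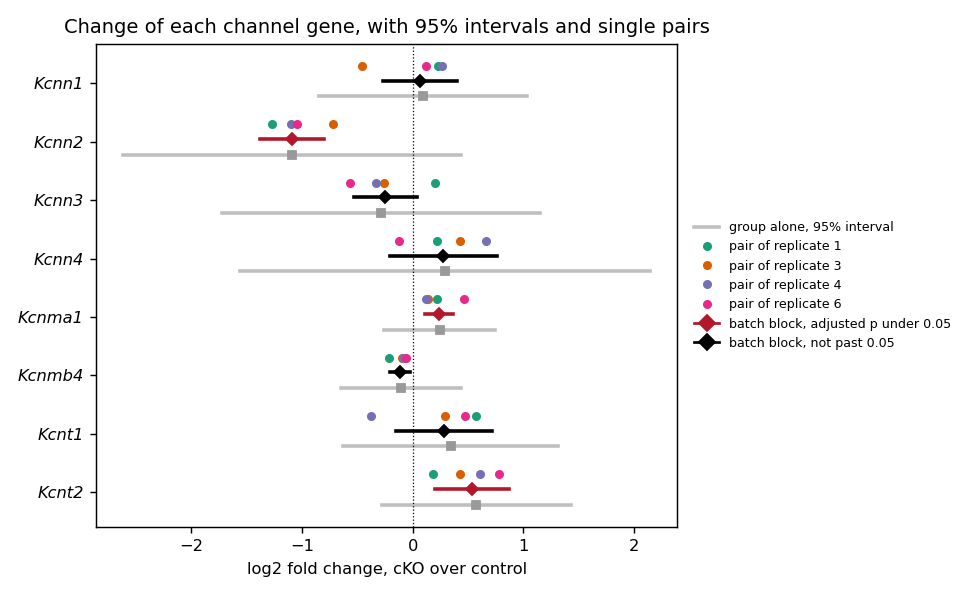
Log2 fold change of cKO over control (horizontal axis) for each channel gene, with dots for single batches, diamonds with 95% intervals for the fit with the batch as a block and grey squares with 95% intervals for the fit on group alone. With the block, the intervals of Kcnn2, Kcnma1, Kcnt2 and Kcnmb4 leave out 0, and all of these genes but Kcnmb4 pass the adjusted threshold. All 8 grey intervals include 0.

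The genes most like each channel gene across the 8 libraries were named by Pearson's r of log2 CPM among up to 12397 tested genes of at least 1 CPM. Because libraries share batches and depth differs among them, r is a description. Kcnn2 was most like Cdh2 (r = 0.990), encoding N-cadherin, Sec63 (0.989) and the glutamine synthetase gene Glul (0.989). Kcnn3 was most like the receptor gene Notch3 (0.997), Ppp1r3c (0.992) and Kyat3 (0.989). Kcnma1 was most like Slc16a9 (0.976), Tcim (0.963) and Copg2 (0.956), and Kcnmb4 like Ikzf2 (0.992), Zbtb26 (0.992) and Sh3gl2 (0.990). Kcnn1 was most like Ngef (0.982), Zkscan8 (0.978) and Plpp6 (0.976), and Kcnn4 like Ssbp3 (0.995), Rcan2 (0.990) and Pstpip2 (0.983). Kcnt1 was most like Adamts14 (0.975), Gbp3 (0.970) and Uxs1 (0.963), and Kcnt2 like Acyp1 (0.992), Fgf12 (0.987) and B3galt2 (0.983). Among the channel genes themselves, Kcnn2 and Kcnn3 had r = 0.899 and Kcnn1 and Kcnmb4 had r = 0.864, whereas Kcnn1 and Kcnn4 had r = -0.794.

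The other genes of the pathway were grouped by role into accessory proteins, modulators, calcium sources, and sodium sources with pumps and exchangers. Over these lists, 16 of 55 genes tested rose, 4 fell and 35 did neither, against the 10.0% of all genes that rose and the 10.4% that fell. The median log2 fold change was 0.06, against -0.01 over all genes tested. Without replicate 1 or replicate 3 the calls numbered 12 and 10. On group alone edgeR called 0, with 4 genes higher and 0 lower at an unadjusted p under 0.05, and DESeq2 called 2.

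Of 9 accessory and sister genes of the BK channel 5 were tested, and 1 rose and 2 fell. Among all genes tested 10.0% rose and 10.4% fell. Kcnu1, which encodes the related pH-sensitive channel of sperm, had 1.67, 1.27, 1.38 and 1.66 CPM in cKO replicates 1, 3, 4 and 6, against 0.510, 0.977, 0.523 and 0.909 CPM in control. Its groups did not overlap, as held for 3.68% of all genes tested, and its log2 fold change was 1.06 ± 0.23 (SE). Kcnu1 was named for its small p-value. Lingo1 fell (-0.24 ± 0.05), as did Fmr1 (-0.14 ± 0.04), whose protein binds BK beta4 and Slack. The gamma subunit gene Lrrc55 was at 0.69 ± 0.26 with an edgeR adjusted p of 0.0843, and Lrrc38, another gamma subunit gene, was at -0.71 ± 0.29 with an adjusted p of 0.110 in edgeR. The smooth-muscle beta subunit gene Kcnmb1 averaged 0.0661 CPM in cKO and 0.0385 CPM in control and was not tested, and nor was Kcnmb3, at 0.0407 CPM in cKO and 0.0430 CPM in control.

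Of 17 modulators, 3 rose and 1 fell, against 10.0% higher and 10.4% lower among all genes tested. Calm2, among the genes that encode calmodulin, the calcium sensor of the Kcnn channels, rose by log2 0.12 ± 0.03 (SE). Calm3, another calmodulin gene, did not pass (-0.03 ± 0.03). Prkg1, a cGMP-dependent kinase that acts on BK, rose (0.49 ± 0.08), and Trim27, a ubiquitin ligase that restrains the Kcnn4 channel in human T cells, fell (-0.15 ± 0.04). Casein kinase 2 and phosphatase 2A genes, whose products set the calcium sensitivity of rat SK2, had log2 fold changes between -0.07 and 0.02 and did not pass.

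Of 22 calcium sources, 6 rose and 1 fell, against 10.0% higher and 10.4% lower among all genes tested. Orai2, a pore of store-operated entry, had 24.6, 20.9, 21.8 and 19.6 CPM in cKO replicates 1, 3, 4 and 6, against 18.1, 15.9, 17.2 and 13.6 CPM in control, and rose by 0.43 ± 0.05. The N-type calcium channel gene Cacna1b rose by 0.46 ± 0.06, with 21.4 to 28.0 CPM in cKO and 14.5 to 19.1 CPM in control. Neither gene's groups overlapped, as held for 3.68% of all genes tested, and both genes were named for their small p-values. The calcium release channel gene Ryr3 rose (0.78 ± 0.15), as did Stim2 (0.17 ± 0.04), the sensor of calcium stores. Cacna1c, an L-type channel gene, was the one that fell (-0.21 ± 0.06).

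Of 11 tested sodium sources, pumps and exchangers, 6 rose and 0 fell in edgeR, with 0 lower at an unadjusted p under 0.05 and 0 lower in DESeq2 or limma-voom with the block. Of all genes tested, 10.0% rose and 10.4% fell. On group alone edgeR called 0 of the 11, with 1 at an unadjusted p under 0.05, and DESeq2 called 1. The voltage-gated channel gene Scn2a rose by 0.64 ± 0.06, with 18.4 to 24.8 CPM in cKO and 11.4 to 16.5 CPM in control. Nalcn, the sodium leak channel gene, rose by 0.56 ± 0.10, and its groups overlapped. The neuron marker sum was higher in cKO in the same 4 batches, and its part in these rises was not tested. Of the 7 neuron markers tested, 4 rose and 0 fell, while Rbfox3 was lower in cKO in all 4 batches without passing. Scn1a (0.33 ± 0.07) and Scn3a (0.28 ± 0.07) also rose. The exchanger genes Slc8a1, Slc8a2 and Slc8a3 had log2 fold changes of 0.04, -0.05 and -0.13 and did not pass.

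**Figure D4:**
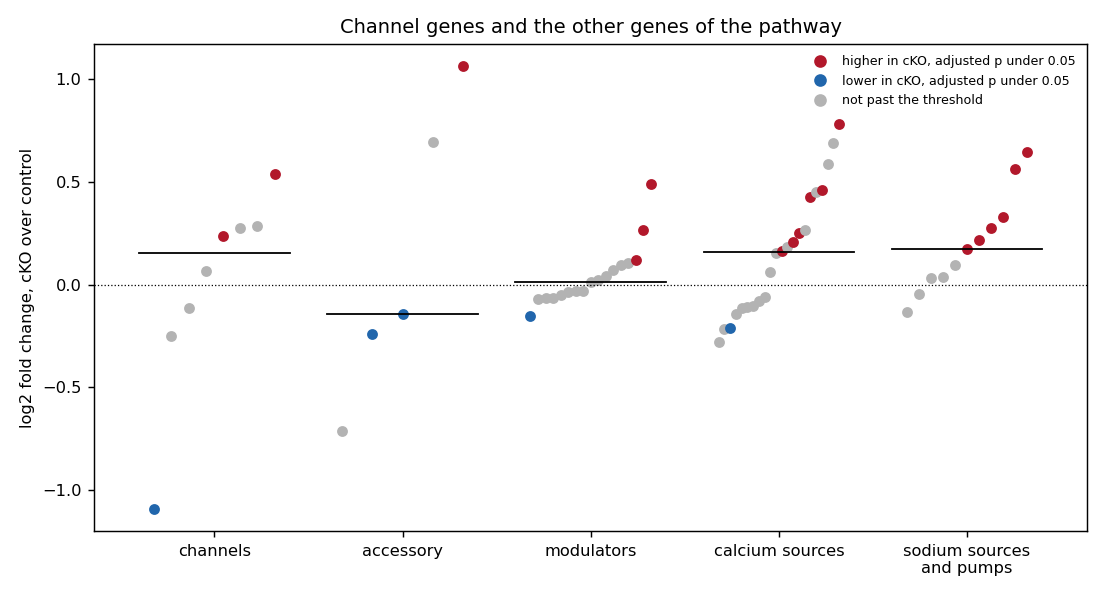
Log2 fold change of cKO over control (vertical axis) for every tested channel gene and every tested gene of the 4 pathway lists, with black bars at list medians. Kcnn2 is the lowest point at -1.09 and Kcnu1 the highest at 1.06, and coloured points passed the adjusted threshold.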

How the data were processed

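RNA-seq of 8 libraries was used, 4 cKO and 4 control. The submitters' processing notes name STAR, cutadapt, Partek and DESeq2, and the mm10 build. The sources used here give no versions, gene annotation or strand setting. The values are estimated counts per gene as the authors deposited them, not normalized, of which 52% are not whole, and no gene has a total under 10. Columns were matched to samples by batch name. Counts were rounded, filtered with filterByExpr (minimum count 10) and scaled by TMM, and group was tested with the replicate number as a block in edgeR 4.0.16 (robust quasi-likelihood, 2-sided, R 4.3.3), with Benjamini-Hochberg adjustment at 0.05. Standard errors come from the F statistic. Log2 CPM used a prior count of 2. Coordinates give the end as the last base, and exon lengths come from GENCODE M21 on the same build.

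The labels give each number to 1 cKO and 1 control library of a named batch. Deviations from group means correlated at 0.787, 0.791, 0.761 and 0.750 for replicates 1, 3, 4 and 6. No library was a duplicate, with a chi-square per degree of freedom of at least 54.4 between libraries of a group. The fit was also run on counts simulated from its own model, which cannot show whether its p-values hold for these libraries. The members, lists and tests were chosen with earlier results of these data known. Named genes were all channel genes, the targeted genes, up to 4 genes per pathway list with the smallest p, and the 3 genes most like each channel gene, leaving out model names. Other genes were named after their values were seen. A gene that the rule took is not reported here. Alternatives were other scaling (RLE, upper quartile, CT010467.1 left out), other filters (none, or 1 CPM in 4 libraries), edgeR without the robust option, DESeq2 1.42.0, limma-voom (limma 3.58.1), no block, and each batch or library left out. With these depths, counting limits precision mainly for genes near 1 CPM or below.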

Additional observations from a re-analysis of the deposited data

How the results depend on the processing

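Calls depended on the replicate block. With no replicate block, edgeR called 3 genes in all (3706 with it), 0 channel genes and 0 pathway genes, and DESeq2 called 191, 0 and 2. Leaving out each single library on group alone gave 1 to 5 genes in all, 0 channel genes and 0 pathway genes. With the block, leaving out a batch gave 2102 to 3432 genes in all, 2 to 3 channel genes and 10 to 22 pathway genes (20 with all batches). Over the 8 other settings with the block (scaling, filters, edgeR without the robust option, DESeq2, limma-voom), directions of all 8 channel genes held, and calls held for all but Kcnt2, which was lost in DESeq2. Kcnn2 passed in all of these and without any batch. Signs turned for genes that had not passed: leaving out batches or single libraries moved log2 fold changes from -0.13 to 0.30 for Kcnn1, -0.60 to 0.20 for Kcnn3, -0.18 to 0.69 for Kcnn4, -0.31 to 0.070 for Kcnmb4 and -0.10 to 0.61 for Kcnt1. With the block only Kcnn1 turned, to -0.005 without replicate 4. The cause was not tested. In 52 groups of 4 libraries over 26 named genes, 0 held a library that stood far from the others. With 7 to 79 counts per library, Kcnn4 is limited most by depth.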
